A study of Homo sapiens with 12 samples.

Results

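The genes described here encode the respiratory chain and the ATP synthase of mitochondria. They were chosen by name, as the gene symbols in both FPKM tables that begin with NDUFA, NDUFB, NDUFC, NDUFS or NDUFV and a digit, with UQCR, with COX and a digit from 4 to 8 or with ATP5, together with SDHA, SDHB, SDHC and SDHD, where the symbol has no hyphen. The rule found 88 of 23621 genes, and 3 further rows of these families were left out for a hyphen.

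RNA-seq was performed on KURAMOCHI (Ku) and COV362 (Cov) cells, 2 human ovarian cancer cell lines grown in RPMI and in DMEM, respectively, each with fetal bovine serum, penicillin and streptomycin. Each line was exposed for 6 hr to the vehicle DMSO or to THZ1, a covalent inhibitor of transcriptional kinases that include CDK7, at 50 nM or 250 nM. There were 2 libraries per group, 12 in all, described as biological duplicates, and the p-values measure the spread between these duplicates. ERCC RNAs, synthetic transcripts of known amount, had been mixed into RNA normalized by cell count, and levels are spike-in normalized FPKM (fragments per length of transcript and library size, rescaled to the spike-ins). The depth of the libraries is unknown.

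The respiratory chain moves electrons from NADH and succinate to oxygen through complexes I to IV and pumps protons across the inner mitochondrial membrane, and the ATP synthase, also called complex V, lets the protons return and makes ATP. Most of the subunits are encoded in the nucleus, transcribed by RNA polymerase II, translated in the cytoplasm and imported. A minority, in complexes I, III, IV and V, is encoded in mitochondrial DNA. For these 13 genes no row was found in the FPKM tables under the symbols searched, so they were not analysed here.

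Markers listed for serous ovarian cells were found in both lines. PAX8, a transcription factor of Müllerian epithelium, stood at 140 and 132 FPKM in the Ku DMSO libraries and at 120.3 and 128 FPKM in those of Cov. Of the 9 markers, 8 had a mean above 1 FPKM in DMSO in each line, and the exceptions were MUC16 in Ku cells and WT1 in Cov cells. Some of the 8 were low. Beside PAX8, Ku means were 1.90 (FOLR1), 4.13 (EPCAM), 4.61 (KRT7), 56.8 (WT1), 239 (CDH6), 2135 (KRT18) and 2432 (KRT8) FPKM. Cov means were 4.40 (FOLR1), 5.71 (MUC16), 162 (EPCAM), 166 (CDH6), 792 (KRT18), 1133 (KRT8) and 1355 (KRT7) FPKM. The leukocyte markers summed to 2.97 FPKM in Ku DMSO and 4.52 FPKM in Cov DMSO, most of it CD68, and of the endothelial markers CDH5 was the highest, with 8.23 and 7.75 FPKM. The fibroblast markers summed to 3.14 FPKM in Ku cells and 45.9 FPKM in Cov cells, where COL1A2 gave 42.2 FPKM, while DCN and LUM were close to the lowest values of the tables in both lines.

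Of the 88 genes, 82 exceeded 1 FPKM in 1 or more of the 12 libraries and were tested among the 14251 genes that passed this filter, here called active genes. The 6 others were ATP5L2, COX4I2, COX6A2, COX6B2, COX7B2 and COX8C, which are a copy of ATP5L and tissue-restricted forms of complex IV subunits. COX6A2, COX7B2 and COX8C were listed in every library at the low value that 5276 Ku rows and 4896 Cov rows share, between 0.0783 and 0.119 FPKM depending on the library. Among the ubiquitous forms in complex IV, COX4I1 had 407 and 388 FPKM in Ku DMSO, COX6A1 408 and 378, and COX6B1 777 and 705.

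As a group the genes were abundant. Their median in the DMSO libraries was 170.0 and 157 FPKM in Ku cells, beside 12.8 and 10.9 FPKM for all active genes, and 166 and 183 FPKM in Cov cells, beside 13.4 and 14.4 FPKM. The FPKM of the 88 genes summed to 22815 and 21029 in Ku DMSO, 21951 and 20713 at 50 nM, and 16748 and 15290 at 250 nM. In Cov cells the sums were 21829 and 24565 in DMSO, 15544 and 16361 at 50 nM, and 13037 and 12801 at 250 nM. The 50 nM libraries thus overlapped with DMSO in Ku cells and lay below it in Cov cells, and at 250 nM the sums were lower than both DMSO libraries in each line. Because RNA was taken per counted cell, these values speak of RNA in bulk culture, where fewer transcribing cells and less RNA per cell cannot be told apart.

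The share of these transcripts among those of all genes was 1.85% and 1.71% of the summed FPKM of all genes in Ku DMSO, 2.15% and 2.12% at 50 nM, and 2.53% and 2.52% at 250 nM. In Cov cells it was 1.48% and 1.46% in DMSO, 1.48% and 1.37% at 50 nM, and 1.72% and 1.67% at 250 nM. The Ku share was above both DMSO libraries at each dose, and the Cov share overlapped with DMSO at 50 nM and was above it at 250 nM. At 50 nM the summed level was 97.3% of DMSO for these genes and 81.2% for all genes in Ku cells, and 68.8% and 71.2% in Cov cells. At 250 nM it was 73.1% and 51.6% in Ku cells, and 55.7% and 48.2% in Cov cells. The differences between sums were not tested, and an exact two-sided permutation test of 2 libraries against 2 cannot give a p below 0.33.

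**Figure D1:**
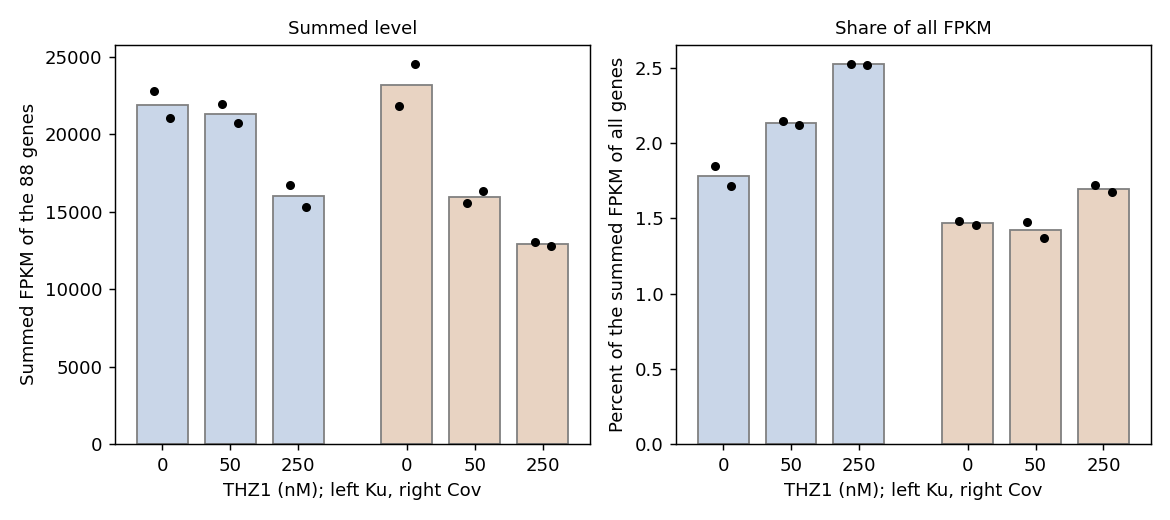
Summed spike-in normalized FPKM of the 88 genes (left) and its percent of the summed FPKM of all genes (right) for DMSO (0), 50 nM and 250 nM THZ1 in Ku (blue) and Cov (tan) cells. Bars are means of 2 libraries and points are libraries; in Ku cells the share is 1.85% and 1.71% in DMSO and 2.53% and 2.52% at 250 nM.

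Each gene was then compared between groups with limma, fitted to log2(FPKM + 1) of the 6 libraries of each line, with Benjamini-Hochberg adjustment across all active genes. Calls required a log2 fold change beyond 0.5 together with an adjusted p under 0.001. In Ku cells at 250 nM, 41 of the 82 genes were called lower than DMSO, or 50.0%, beside 68.6% of all active genes. In Cov cells at 250 nM it was 76 of 82, or 92.7%, beside 84% of all active genes, and the order of these shares turned with some settings. The Cov share of the respiratory genes was the lower with a replicate block (60 of 82, or 73.2%, beside 78.6%), without DMSO replicate 2 (69.5% beside 73.3%), without 250 nM replicate 1 (68.3% beside 77%) and without 250 nM replicate 2 (72.0% beside 79%). With no minimum FPKM the Ku shares were 35.2% of 88 and 34.5% of all genes. The median log2 fold change of the 82 genes was -0.53 in Ku cells, from -0.65 to -0.40 when the 4 treated and DMSO libraries were paired in each way, and -0.85 in Cov cells, from -0.99 to -0.78. For all active genes it was -1.11 and -1.31, so that the typical respiratory gene fell less than the typical active gene on this scale: 77 of the 82 lay above the median of all active genes in Ku and 76 in Cov cells. With no minimum FPKM, which adds genes of low level, the difference between the medians turned from 0.58 to -0.01 in Ku cells and from 0.45 to -0.15 in Cov cells. The count called lower in Ku cells was 19 without DMSO replicate 1, 22 without 250 nM replicate 1 and 15 without 250 nM replicate 2, beside 51.2%, 42.7% and 44.3% of all active genes.

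The direction of these changes rests on the spike-in normalization. When libraries were rescaled so that their active genes shared 1 median FPKM, no member was called lower at 250 nM and 76 were called higher in Ku and 75 in Cov cells, beside 26.9% and 26.4% of all active genes called higher and 11.6% and 11.3% called lower. That scaling moved the median log2 fold change of all active genes from -1.11 to 0.29 in Ku cells and from -1.31 to 0.31 in Cov cells, and that of the respiratory genes to 1.42 and 1.18. With median-of-ratios scaling 60 and 54 members were called higher and 0 lower, beside 11.1% and 8.57% of all active genes called higher and 19.0% and 18.9% called lower. Falls given from here on are falls per spike-in. The respiratory genes below the median of all active genes at 250 nM numbered 5 in Ku cells (UQCRFS1, NDUFV3, ATP5SL, NDUFA8 and SDHA) and 6 in Cov cells.

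At 50 nM the lines differed in their counts, although a difference between them was not tested because their tables were normalized separately. In Ku cells 2 of 82 genes were called lower, or 2.44%, beside 11.3% of all active genes, and the median log2 fold change was -0.09, beside -0.40 for all active genes. The 2 were NDUFA8, an accessory subunit of complex I, with 117 and 112 FPKM in DMSO and 72.7 and 68.1 at 50 nM, and ATP5SL, with 88.1 and 81.1 and then 50.6 and 44.7 FPKM. The count was 0 without any 1 of the 6 Ku libraries, where calls among all active genes also fell away, to between 0.0421% and 0.919%. In Cov cells 38 of 82 were called lower, or 46.3%, beside 70.5%, with medians of -0.55 and -0.85. This count became 2 without DMSO replicate 2 (30.3% of all active genes), 11 without 50 nM replicate 1 (59.6%), 18 without 50 nM replicate 2 (69.7%), 21 without DMSO replicate 1 (48.4%) and 23 without either 250 nM library (68.4% and 68.5%). It was 11 with a replicate block, beside 51%, and 19 with no minimum FPKM, beside 35.1% of all genes. With no minimum FPKM the difference between the medians of respiratory and all genes fell from 0.31 to 0.05 in Ku cells. In Cov cells that difference turned from 0.30 to -0.03.

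No respiratory gene was called higher than DMSO by limma at either dose in either line. At an unadjusted p under 0.05 the number with a positive log2 fold change was 2 in Ku cells at 50 nM and 0 in the other 3 comparisons with DMSO. Of the 14251 active genes it was 208 (50 nM) and 26 (250 nM) in Ku cells, and 57 and 44 in Cov cells. Among all active genes 0.0842% (50 nM) and 0.0491% (250 nM) were called higher in Ku cells, and 0.0772% and 0.105% in Cov cells. In Ku cells at 50 nM 21 of the 82 fold changes were above 0, and in Cov cells 1 was. Those below 0 made up 74.4% in Ku cells, beside 90.1% of all active genes, and 98.8% in Cov cells, beside 98.1%.

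Between 50 nM and 250 nM, 27 of 82 genes were called lower in Ku cells, or 32.9%, beside 36% of all active genes, and 3 in Cov cells, or 3.66%, beside 24.4%. The Ku count was 2 or 3 when a 50 nM or a 250 nM library was left out, beside 5.89% and 11.2% and then 5.55% and 7.17% of all active genes. It was 7 with no minimum FPKM (8.05% of all genes) and 11 without the mean-variance trend (31.3%), and with a replicate block it was 33, or 40.2%, above the 34.7% of all active genes. The Cov count was 1 when either DMSO library, 50 nM replicate 2 or either 250 nM library was left out, beside 15.4%, 15.4%, 18.7%, 11.9% and 10.7%. The order of DMSO over 50 nM over 250 nM held for every library of 36 of 82 genes in Ku cells, or 43.9%, beside 66.7% of all active genes, and for 74 in Cov cells, or 90.2%, beside 73.8%. Comparisons of the doses with DMSO share the DMSO libraries and are given side by side.

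**Figure D2:**
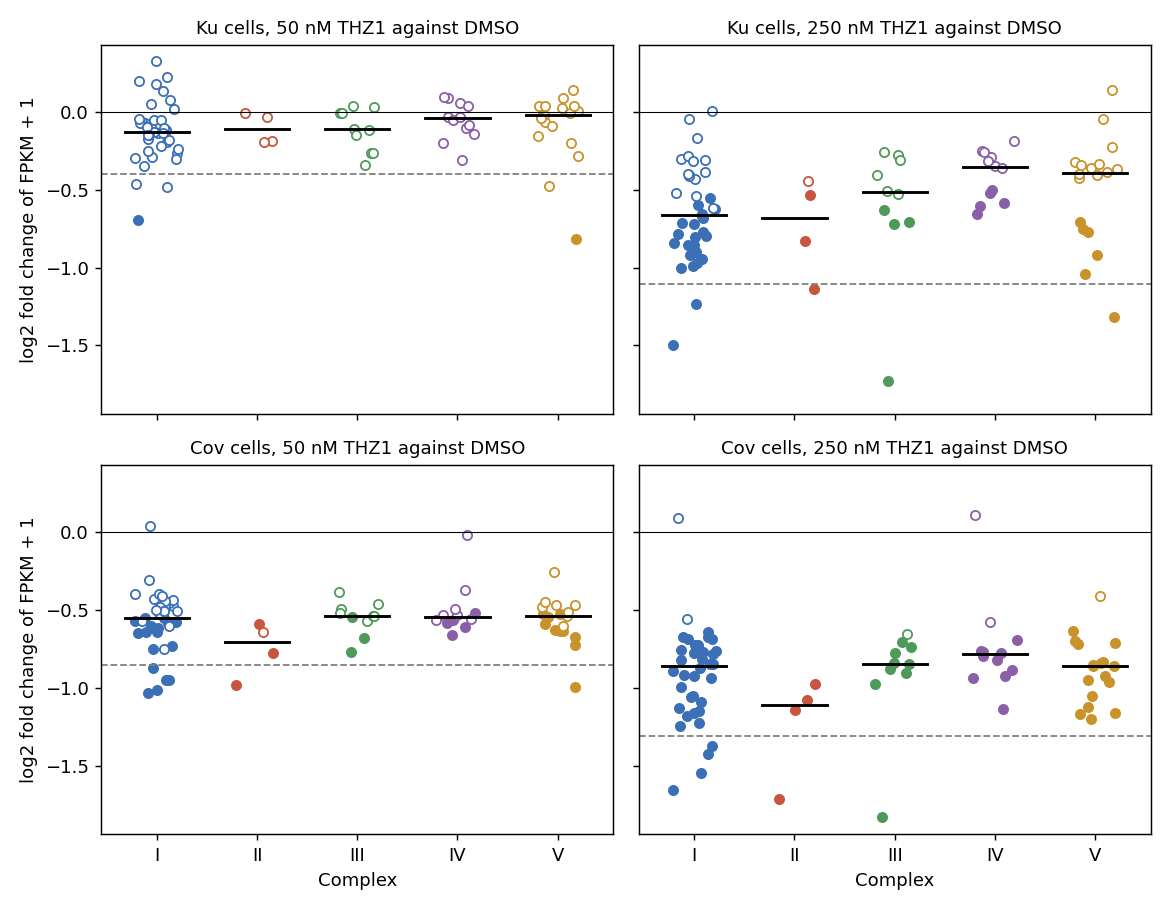
Log2 fold change of FPKM + 1 against DMSO for the 82 active genes, by complex, line and dose. Each point is a gene, filled where limma called it lower; black bars are medians of a complex and the dashed line is the median of all active genes, which lies at -1.11 in Ku and -1.31 in Cov cells at 250 nM and moves to 0.29 and 0.31 with libraries scaled to equal medians.

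Complex I, the NADH dehydrogenase, is the largest of the complexes and 38 of the genes carry its names. At 250 nM 23 were called lower in Ku cells, with a median log2 fold change of -0.66, and 36 in Cov cells, with a median of -0.86. These and the counts for other groups of genes at 250 nM stand beside 68.6% of all active genes called lower in Ku and 84% in Cov cells.

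NDUFB9, an accessory subunit of the membrane arm, was the most abundant of complex I in DMSO. Its gene spans chr8:125551342-125592889 on hg19. It had 985 and 923 FPKM in Ku DMSO, 1008 and 928 at 50 nM and 638 and 576 at 250 nM, and in Cov cells 644 and 757, 480.3 and 519, and 372 and 358. The 50 nM libraries overlapped with DMSO in Ku cells, and both groups of treated Cov libraries lay below DMSO. At 250 nM NDUFB9 fell by 0.65 on the log2 scale in Ku cells (SE 0.0838, limma adjusted p = 0.000427) and fell by 0.93 in Cov cells (SE 0.105, adjusted p = 7.79e-05). In Ku cells the call was lost without any 1 of the 6 libraries, where the adjusted p lay between 0.00104 and 0.0039, with no minimum FPKM (0.00153) and without the mean-variance trend (0.00113).

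The largest falls in complex I at 250 nM were those of NDUFV3 and NDUFA8 in Ku cells and of NDUFV2, NDUFV3 and NDUFS1 in Cov cells. NDUFV3, a small subunit beside the flavin site, had 14.2 and 13.7 FPKM in Ku DMSO and 4.49 and 4.11 at 250 nM, and 34.8 and 39.2 and then 13.2 and 10.9 FPKM in Cov cells. NDUFV2, which holds an iron-sulfur cluster, had 135 and 146 FPKM in Cov DMSO and 47.1 and 40.9 at 250 nM. In these genes the treated libraries lay far below DMSO and the groups did not overlap.

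At the other end NDUFA4, named for complex I and since assigned to complex IV, had 157 and 132 FPKM in Ku DMSO, 175 and 161 at 50 nM and 151 and 129 at 250 nM. In Cov cells it had 138 and 159, 107.0 and 118, and 95.7 and 82.9 FPKM. The 250 nM libraries overlapped with DMSO in Ku cells and lay below it in Cov cells. NDUFA4L2, a paralog known to respond to low oxygen, reached at most 0.36 FPKM in Ku cells and lay between 0.67 and 1.01 FPKM in Cov cells, so its log2 fold changes of 0.01 and 0.09 at 250 nM describe a gene that passed the filter through 1 Cov library.

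Complex II, succinate dehydrogenase, belongs to both the respiratory chain and the TCA cycle, and all of its 4 subunits are nuclear. At 250 nM 3 were called lower in Ku and 4 in Cov cells. SDHA, the flavoprotein, had 114 and 106 FPKM in Ku DMSO, 106 and 109 at 50 nM and 49.4 and 49.3 at 250 nM, and in Cov cells 97.0 and 103, 50.1 and 50.6, and 28.6 and 31.3. The log2 fold changes of SDHA at 250 nM, -1.14 (Ku) and -1.71 (Cov), were among the 5 largest falls of each line. SDHC, a membrane anchor, had a log2 fold change of -0.45 in Ku cells and was not called there.

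SDHB, the iron-sulfur subunit, was the most abundant of the complex, with 255 and 228 FPKM in Ku DMSO, 243 and 237 at 50 nM and 173 and 159 at 250 nM. Cov values of SDHB were 241 and 271, 163 and 176, and 122 and 119 FPKM. The 50 nM libraries lay within the DMSO values in Ku cells and below them in Cov cells. At 250 nM SDHB fell by 0.53 in Ku cells (SE 0.0771, limma adjusted p = 0.000736), a call lost without any 1 of the 6 libraries (adjusted p from 0.00108 to 0.00575), with no minimum FPKM (0.00201) and without the trend (0.00238), and fell by 1.08 in Cov cells (SE 0.0912, adjusted p = 1.62e-05).

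Complex III, the cytochrome bc1 complex, gave the largest fall of all 82 genes in both lines. UQCRFS1, the Rieske iron-sulfur protein, which passes electrons to cytochrome c1, encoded at chr19:29696227-29704058 on hg19, had 279 and 257 FPKM in Ku DMSO, 224 and 221 at 50 nM and 82.7 and 77.6 at 250 nM. Cov values of UQCRFS1 were 180.0 and 201, 108 and 115, and 52.6 and 52.8 FPKM. Each dose lay below the one before it in both lines, with no overlap. At 250 nM UQCRFS1 fell by 1.73 in Ku cells (SE 0.0657, limma adjusted p = 7.96e-06) and fell by 1.83 in Cov cells (SE 0.0865, adjusted p = 1.35e-06), to 29.9% and 27.7% of the DMSO mean. With median-of-ratios scaling its fold changes were -0.28 and -0.23, beside medians of -0.000879 and 0.011 for all active genes. With scaling to equal medians they were 0.24 and 0.22, beside 0.29 and 0.31.

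The other genes of complex III had smaller fold changes. UQCRC1 and UQCRC2, the core proteins that face the matrix, had -0.72 and -0.51 at 250 nM in Ku cells, where UQCRC2 was not called, and -0.90 and -0.98 in Cov cells, where both were. UQCRH, the hinge protein and the most abundant of them, had 1460 and 1332 FPKM in Ku DMSO, 1479 and 1391 at 50 nM and 1199 and 1055 at 250 nM, and in Cov cells 728 and 834, 537 and 598, and 484 and 449.8. At 250 nM its log2 fold change was -0.31 in Ku cells (SE 0.0946, limma adjusted p = 0.0202), which was not called, and -0.74 in Cov cells (SE 0.108, adjusted p = 0.000334), where the call was lost without DMSO replicate 2 or either 250 nM library (adjusted p from 0.00128 to 0.00337), with a replicate block (0.00136) or with no minimum FPKM (0.00113). The treated libraries at 250 nM lay below DMSO in both lines. UQCRHL, an intronless gene much like UQCRH, was listed at 669.7 and 643 FPKM in Ku DMSO, and UQCRBP1, a processed pseudogene of UQCRB at chrX:56763675-56764010 on hg19, at 107 and 96.8 FPKM beside 88.4 and 80.4 for UQCRB. How reads were divided between such copies is not given in the sources used here, so the levels of these pairs are uncertain.

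Complex IV, cytochrome c oxidase, passes electrons to oxygen, and 12 of its 17 named genes were active. At 250 nM 5 were called lower in Ku cells, with a median log2 fold change of -0.35, and 10 in Cov cells, with a median of -0.78. COX4I1, COX5A and COX5B, nuclear subunits close to the catalytic core, were called in both lines, with fold changes from -0.58 to -0.50 in Ku cells and from -0.92 to -0.77 in Cov cells. Of the 7 small accessory subunits, 1 was called in Ku and 6 in Cov cells. COX7A2L, a protein that joins complexes III and IV into supercomplexes and is not a subunit of the isolated enzyme, fell by 0.65 in Ku cells and fell by 1.14 in Cov cells.

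COX7C, the most abundant gene of complex IV, had 809 and 733 FPKM in Ku DMSO, 752 and 700.4 at 50 nM and 674 and 618 at 250 nM. Cov values of COX7C were 848 and 1032, 604 and 669.5, and 565 and 513 FPKM. At 250 nM both lines lay below DMSO without overlap. The log2 fold change was -0.25 in Ku cells (SE 0.0838, limma adjusted p = 0.0269), which was not called, and -0.80 in Cov cells (SE 0.123, adjusted p = 0.000473), a call lost without DMSO replicate 2 or either 250 nM library (adjusted p from 0.00134 to 0.00409), with a replicate block (0.00195) or with no minimum FPKM (0.00162).

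COX7A1, the form of heart and skeletal muscle, had 2.47 and 1.76 FPKM in Ku DMSO, 2.25 and 0.92 at 50 nM and 1.70 and 1.29 at 250 nM. In Cov cells it had 0.11 and 0.12 FPKM in DMSO and 0.09 and 0.32 at 250 nM, near the shared low value of its table. The groups overlapped in Ku cells at 50 nM, and in Cov cells 1 library at 250 nM stood above the rest. COX7A1 passed the filter of 1 FPKM through Ku libraries only, so its Cov test (log2 fold change 0.11, SE 0.0903, limma adjusted p = 0.258) describes values near the low end of the table, and without 250 nM replicate 2 the Cov value was -0.02. In Ku cells the fold change was -0.31 (SE 0.265, adjusted p = 0.292). Its ubiquitous paralog COX7A2 had 364 and 311 FPKM in Ku DMSO.

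Complex V has 19 named genes, of which 18 were active. At 250 nM 6 were called lower in Ku cells, with a median of -0.39, and 17 in Cov cells, with a median of -0.86. Of the catalytic head and its stalks, ATP5A1 (alpha) and ATP5D (delta) were called in both lines, while ATP5B (beta), ATP5C1 (gamma) and ATP5O were called in Cov cells and not in Ku cells, where their fold changes were -0.42, -0.36 and -0.39. The 3 genes that encode the same ring subunit c had 295 and 271 FPKM (ATP5G1), 232 and 213 FPKM (ATP5G2) and 158 and 146 FPKM (ATP5G3) in Ku DMSO. ATP5G2 and ATP5G3 were called in Ku cells, with fold changes of -0.77 and -0.75, and ATP5G1, at -0.40, was not, and all 3 were called in Cov cells.

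ATP5E, the epsilon subunit of the rotor, was the most abundant of complex V. It had 1484 and 1352 FPKM in Ku DMSO, 1589 and 1431 at 50 nM and 1470 and 1277 at 250 nM, and in Cov cells 1342 and 1476, 958 and 1115, and 911 and 804. The Ku groups overlapped at both doses and the Cov groups did not. In Ku cells at 250 nM the log2 fold change was -0.05 (SE 0.105, limma adjusted p = 0.674), which turned to 0.02 without DMSO replicate 1 and 0.05 without 250 nM replicate 2. It was -0.72 in Cov cells (SE 0.12, adjusted p = 0.000715), a call lost without either DMSO library or either 250 nM library (adjusted p from 0.00122 to 0.00819), with a replicate block (0.00311) or with no minimum FPKM (0.00302).

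ATP5EP2 is a processed pseudogene of ATP5E, and how reads were divided between them is uncertain. It was listed at 47.3 and 28.2 FPKM in Ku DMSO and 48.2 and 33.9 at 250 nM, and in Cov cells 27.2 and 36.4 and then 26.1 and 21.0 FPKM. Its listed values gave the highest fold change among the respiratory genes in Ku cells, 0.14 (SE 0.275, limma adjusted p = 0.63), and -0.41 in Cov cells (SE 0.172, adjusted p = 0.0536). The sign in Ku cells turned without DMSO replicate 2 (-0.22) or without 250 nM replicate 1 (-0.10). ATP5S and ATP5SL carry the family name without being subunits of the enzyme, and both were called lower at 250 nM in both lines, where ATP5SL fell by 1.32 in Ku cells and fell by 1.20 in Cov cells.

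**Figure D3:**
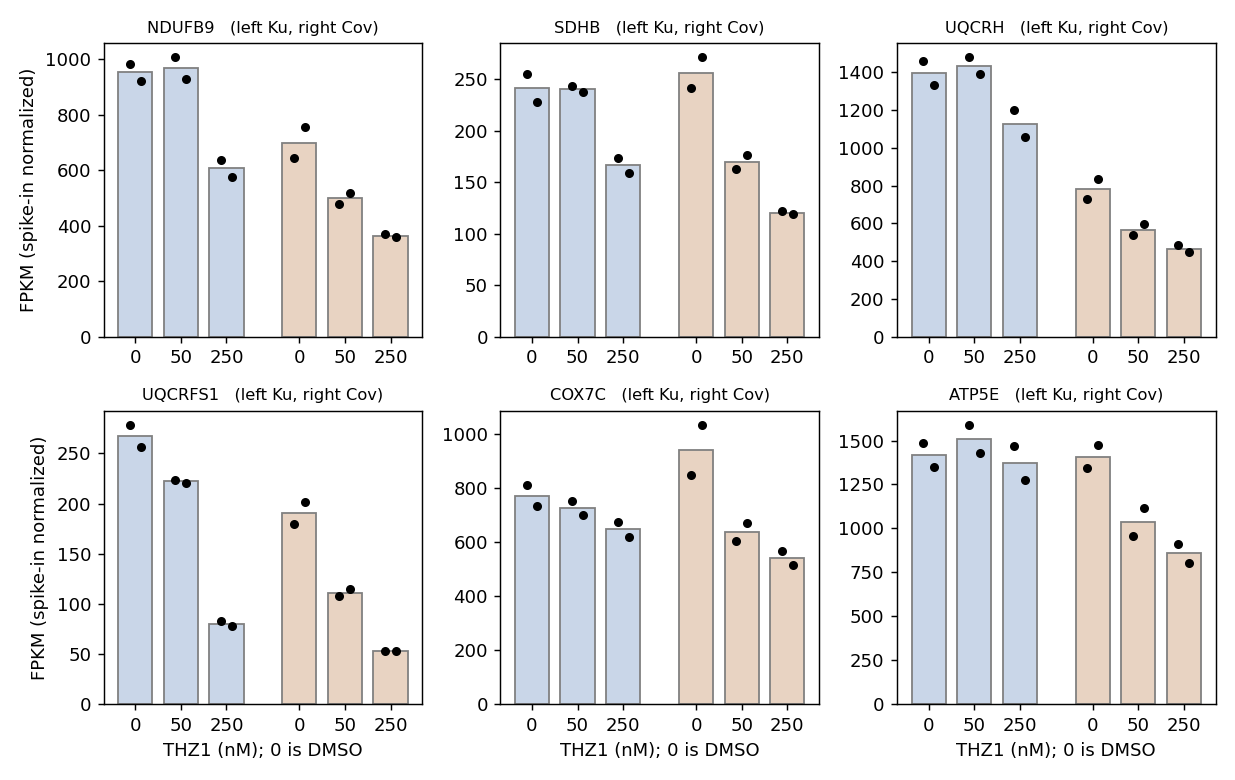
Spike-in normalized FPKM of NDUFB9, SDHB, UQCRH, UQCRFS1, COX7C and ATP5E in DMSO (0), 50 nM and 250 nM THZ1, with Ku cells in blue and Cov cells in tan. Bars are means of 2 libraries and points are libraries. UQCRFS1 falls to 82.7 and 77.6 FPKM in Ku cells at 250 nM, while ATP5E stands at 1470 and 1277 FPKM. With libraries scaled to equal medians the UQCRFS1 log2 fold change there is 0.24, beside a median of 0.29 for all active genes.

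Genes called in each line were partly shared. At 250 nM 40 of the respiratory genes were called lower in both lines, which is 97.6% of those called in Ku cells and 52.6% of those called in Cov cells, and 5 were called in neither. Over all active genes the same shares were 94.2% and 76.9%. At 50 nM both genes called in Ku cells were among the 38 of Cov cells, and over all active genes 92.5% of those called in Ku cells were called in Cov cells. The 6 genes not called at 250 nM in Cov cells were UQCRBP1, COX8A, NDUFA3, ATP5EP2, NDUFA4L2 and COX7A1. In Ku cells 41 were not called, and the most abundant of these in DMSO were ATP5E, UQCRH, COX7C, COX6B1 and NDUFS5.

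The genes were also classed as core, which here took in COX4I1, COX5A and COX5B, or accessory, which took in ATP5E, the ring subunit c genes and NDUFA4. The 22 classed as core had a median log2 fold change at 250 nM of -0.76 in Ku cells, where 17 were called lower, and -0.98 in Cov cells, where 22 were. The 52 classed as accessory had medians of -0.41 and -0.84, with 21 and 50 called. The difference between the classes was not tested.

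The genes also differed with the size of their transcripts, taken from the GENCODE annotation on hg19. The reference transcript had a median of 763 bases and 4 exons for 81 of the 82 genes, and of 3210 bases and 9 exons for all active genes that matched. Whether it was the transcript expressed here is unknown, and it had 3610 bases for ATP5E and 8459 for UQCRB. Over these 81 genes Spearman's rho between transcript length and log2 fold change at 250 nM was -0.30 in Ku and -0.48 in Cov cells, and over 13453 active genes it was -0.17 and -0.22. With exon number rho was -0.36 and -0.42 over the 81 genes, beside 0.05 and -0.02 over the active genes. With the span of the gene on the genome it was -0.255 and -0.59, beside 0.02 and -0.09. These are correlations across genes, which are not independent replicates and which share libraries. The 36 genes of up to 700 bases had a median fold change of -0.41 in Ku and -0.81 in Cov cells, and the 25 genes of over 1400 bases had -0.68 and -1.13. Active genes of up to 700 bases, of which there were 458, had medians of -0.51 and -0.76. Active genes of 700 to 1400 bases had -0.83 and -0.99, beside -0.58 and -0.90 for the respiratory genes of that range. For active genes of over 1400 bases the medians were -1.20 and -1.41.

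**Figure D4:**
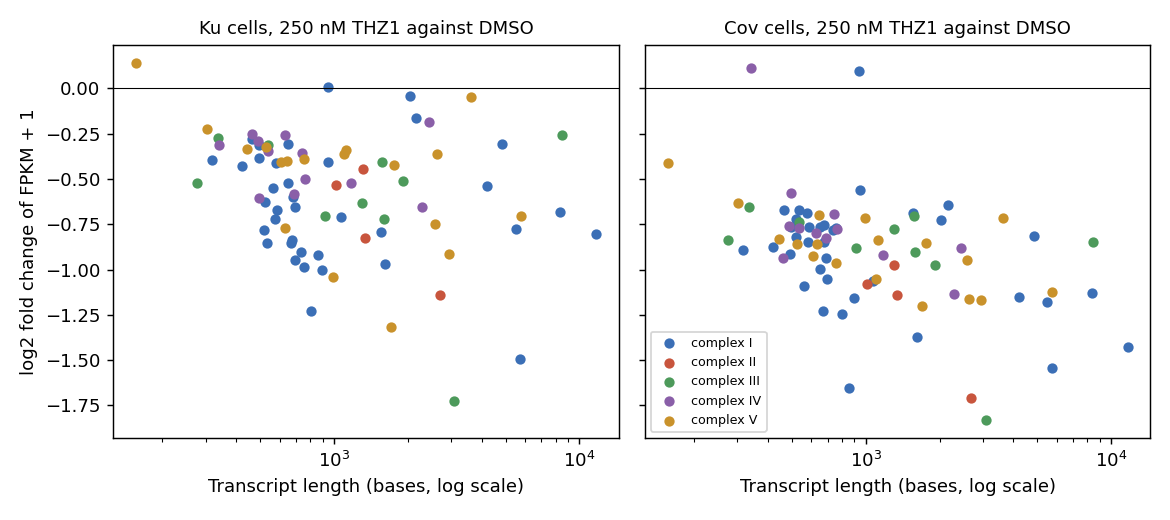
Log2 fold change of FPKM + 1 at 250 nM THZ1 against transcript length on a log scale for the respiratory genes with a length, colored by complex. Spearman's rho is -0.30 in Ku and -0.48 in Cov cells, and UQCRFS1 of complex III is the lowest point in both panels.

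Fold changes were also set against the level in DMSO. Spearman's rho between DMSO FPKM and log2 fold change (250 nM) came to 0.29 in Ku and 0.22 in Cov cells over the 82 genes, and -0.36 and -0.42 over 14249 named active genes. In groups of up to 100, 100 to 300 and over 300 FPKM, the medians of all active genes were -1.15, -0.89 and -0.57 in Ku cells and -1.34, -1.25 and -0.94 in Cov cells, and those of the respiratory genes -0.68, -0.58 and -0.36 and then -0.90, -0.91 and -0.82. The group medians of all active genes thus ran against the sign of their correlation. Most of these genes, 12968 in Ku and 12681 in Cov cells, were in the lowest group. The 1 FPKM added before the log2 draws the fold changes of genes at low level towards no change. Its part in the correlation was not tested. Above 300 FPKM in DMSO, the 21 respiratory genes of Ku cells had a median of -0.36, beside -0.57 for the 381 active genes of that range, and the 27 of Cov cells had -0.82, beside -0.94 for 464. The gap to other genes was thus smaller above 100 FPKM than over all active genes. Up to 100 FPKM it was about as large in Cov cells as over all active genes.

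Promoters were read from RefSeq on GRCh38.p14, where 69 of the 88 genes matched, as 300 bases from 250 before to 50 after the start. The letters GCATGCGC, the core of sites for the nuclear respiratory factor NRF1, occurred on either strand in 13 of the 69 (18.8%), beside 3.27% of all 27305 promoters and 5.32% of 10905 promoters of active genes. The letters CCGGAAG, a core of sites for ETS factors such as GABPA, occurred in 19 of the 69 (27.5%), beside 10.7% and 18.7%. A match is a description of the letters. The 13 active genes with the first motif had a median fold change at 250 nM of -0.58 in Ku and -0.86 in Cov cells, beside -0.58 and -0.88 for the 52 without it. The 19 with the second had -0.50 and -0.77, beside -0.63 and -0.91 for the 46 without it, and these differences were not tested.

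SDHD of complex II, COX5B of complex IV and ATP5J of complex V held both motifs whole within the 150 bases before the start, and UQCRFS1, with the largest fall, held neither. Their bases from -150 to -1 are shown 5′ to 3′ on the strand of the gene, with matches to either motif that lie wholly within them in capitals; a further CCGGAAG of COX5B begins at -5 and runs past the end, so its first bases are in lower case, and the overlapping matches on both strands of SDHD make 1 run. SDHD lies on the plus strand at chr11:112086723-112086872, COX5B on the plus strand at chr2:97645912-97646061, ATP5J on the minus strand at chr21:25735055-25735204 and UQCRFS1 on the minus strand at chr19:29213152-29213301.
SDHD: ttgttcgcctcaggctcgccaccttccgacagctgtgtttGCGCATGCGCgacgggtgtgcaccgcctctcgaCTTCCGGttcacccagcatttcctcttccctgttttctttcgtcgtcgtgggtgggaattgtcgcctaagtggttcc
COX5B: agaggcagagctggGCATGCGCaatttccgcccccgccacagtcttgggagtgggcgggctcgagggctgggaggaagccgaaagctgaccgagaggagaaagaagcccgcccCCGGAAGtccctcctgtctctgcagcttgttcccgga
ATP5J: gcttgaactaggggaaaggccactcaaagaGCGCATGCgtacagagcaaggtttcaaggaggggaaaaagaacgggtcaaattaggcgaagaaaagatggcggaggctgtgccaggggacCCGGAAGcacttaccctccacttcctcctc
UQCRFS1: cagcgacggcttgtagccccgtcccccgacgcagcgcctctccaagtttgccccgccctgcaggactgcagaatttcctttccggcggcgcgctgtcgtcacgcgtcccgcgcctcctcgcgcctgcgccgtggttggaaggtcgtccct
Their fold changes at 250 nM were -0.83, -0.58, -0.32 and -1.73 in Ku cells, where ATP5J was not called, and -1.14, -0.82, -0.86 and -1.83 in Cov cells, where all 4 were called lower.

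Other genes of the pathway were taken from lists. Among 5 further subunits and carriers whose symbols the name rule misses, 3 were called lower in Ku and 4 in Cov cells at 250 nM. CYC1, cytochrome c1 of complex III, had 577 and 569 FPKM in Ku DMSO and 292 and 285 at 250 nM, and CYCS, cytochrome c, fell by 1.00 in Ku cells and fell by 1.30 in Cov cells. Assembly factors, which build the complexes without staying in them, were called lower at 250 nM in 11 of 13 genes for complex I, 4 of 4 for complex II, 6 of 6 for complex III and 15 of 23 for complex IV in Ku cells, and in 12, 4, 6 and 23 in Cov cells. Their medians in Ku cells were -1.10, -1.63, -1.09 and -1.14, beside -1.11 for all active genes. In Cov cells they were -1.14, -1.75, -1.20 and -1.47, beside -1.31. The deepest were SELRC1 (COA7) for complex IV at -4.37 and SDHAF1 for complex II at -4.01 in Ku cells.

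Regulators of mitochondrial gene expression were listed as well. All 8 biogenesis regulators were called in Ku cells at 250 nM and 7 in Cov cells, with medians of -1.88 and -1.63, and the exception was PPARGC1A in Cov cells, which was below 1 FPKM there. NRF1 had 10.3 and 8.56 FPKM in Ku DMSO, 5.85 and 4.69 at 50 nM and 0.94 and 1.08 at 250 nM, and in Cov cells 10.7 and 11.5, 2.48 and 3.35, and 1.03 and 1.17. The treated libraries of NRF1 lay below DMSO at both doses in both lines. GABPA, the DNA-binding part of an ETS factor, had a fold change at 250 nM of -1.46 in Ku and -1.69 in Cov cells, ESRRA, an orphan nuclear receptor, -2.38 and -1.56, and the coactivator PPARGC1B -1.67 and -0.66. PPRC1, a coactivator of NRF1, had the largest fall of the list, at -3.40 in Ku and -3.66 in Cov cells.

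TFAM, which packages and transcribes mitochondrial DNA, had 21.5 and 18.9 FPKM in Ku DMSO, 18.1 and 15.4 at 50 nM and 7.78 and 7.60 at 250 nM. Cov values of TFAM were 27.9 and 29.6, 15.8 and 19.8, and 7.97 and 6.78 FPKM. At 250 nM it fell by 1.28 in Ku cells (SE 0.116, limma adjusted p = 9.23e-05), where the call was lost without either 250 nM library (adjusted p of 0.00104 and 0.00108), and fell by 1.83 in Cov cells (SE 0.13, adjusted p = 6.8e-06). Its direction depended on the scaling, with 0.55 and 0.06 in Ku cells and 0.10 and -0.33 in Cov cells for equal medians and median-of-ratios. The medians of all active genes were then 0.29 and -0.000879 in Ku cells and 0.31 and 0.011 in Cov cells. With the spike-ins they were -1.11 and -1.31. TFAM thus lay below the median of all active genes in Cov cells with each scaling. In Ku cells it lay below that median only with the spike-ins. All 9 genes of mitochondrial transcription and replication were called in both lines, with medians of -1.92 and -1.91.

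The cytoplasmic ribosome and the mitochondrial ribosome, both made of many small subunits, were set beside these genes. Of 82 active cytoplasmic ribosomal protein genes, 13 were called lower in Ku cells at 250 nM and 71 in Cov cells, with medians of -0.37 and -0.78, above those of the respiratory genes. Of 76 mitochondrial ribosomal protein genes, 72 and 76 were called, with medians of -1.49 and -1.51. The TCA cycle genes lay between, with 12 and 13 of 13 called and medians of -0.76 and -1.16. The ATP synthase assembly and inhibitor list had 2 and 4 of 4 called, TMEM70 being the lowest at -2.95 and -2.81 and ATPAF2 the highest at -0.32 and -0.87.

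Some ends of the other lists at 250 nM were these. NDUFAF4 was the lowest of complex I assembly in both lines, at -2.42 and -2.08, and NUBPL the highest, at -0.52 and -0.59. SURF1 was the highest of complex IV assembly in Cov cells at -0.80 and COX16 in Ku cells at -0.20. Among TCA cycle genes IDH3A was lowest in Ku cells at -1.47 and OGDH in Cov cells at -1.86. RPL39L was the lowest cytoplasmic ribosomal gene in Ku cells at -2.30 and RPL21 the highest at 0.36, which was not called. MRPS26 was the lowest mitochondrial ribosomal gene in Ku cells at -3.09 and MRPL46 in Cov cells at -3.08.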

How the data were processed

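The authors aligned reads to hg19 and deposited spike-in normalized FPKM, 1 table per cell line, and their processing notes name HISAT, Cufflinks and Cuffnorm without versions. FPKM are not counts, so edgeR was not used and depth is unknown. Every value column was used. Genes above 1 FPKM in at least 1 of 12 libraries were kept, ERCC rows were left out, and log2(FPKM + 1) was fitted per line with limma 3.58.1 in R 4.3.3 (2 libraries in each of 3 groups, eBayes with a trend, two-sided). The fit was tested on simulated data. Tables of the lines were normalized separately and were not tested against each other. Replicate numbers were not taken as a pairing. Members and lists were chosen with earlier results of these data known. Genes named were core subunits, paralog sets, non-subunits, regulators and the 5 largest and 5 smallest falls per line at 250 nM. The most abundant genes not called and some ends of the lists were also named. Full statistics were given for the most abundant gene of each complex, the ends of each line and TFAM. Length and level groups were chosen after the data were seen. Alternatives were a pseudocount of 0.1, a minimum of 10 FPKM or none, 2 other scalings, a replicate block, no trend, an adjusted p under 0.05 and each library left out. Plots used Python 3.11.15 with matplotlib 3.10.9.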

Additional observations from a re-analysis of the deposited data

Results flagged for a closer look

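At 50 nM, 6 respiratory genes stood in both Ku libraries above both DMSO libraries and in both Cov libraries below both DMSO libraries, and the difference between the lines was not tested. Their log2 fold changes in Ku cells were 0.14 for ATP5B, 0.20 for NDUFA12, 0.18 for NDUFA2, 0.22 for NDUFA4, 0.13 for NDUFB2 and 0.33 for NDUFC2, none of which was called. In Cov cells they were -0.48, -0.62, -0.48, -0.39, -0.40 and -0.31, of which NDUFA12 was called lower. The same opposite order was found for 378 of 14251 active genes (2.65%) and for 7.32% of the 82 respiratory genes. At 250 nM it was found for 24 active genes (0.168%) and for 0 of the respiratory genes.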

How the results depend on the processing

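With libraries scaled to equal medians the count of respiratory genes called lower was 0 in all 6 comparisons, and it was 0 with median-of-ratios too. The counts called higher at 250 nM were then 76 and 60 in Ku cells and 75 and 54 in Cov cells, and 2 in Cov cells at 50 nM with median-of-ratios. For 250 nM against 50 nM they were 7 (Ku) and 9 (Cov) with equal medians and 1 (Ku) and 0 (Cov) with median-of-ratios, and the other counts were 0. Median-of-ratios set the median log2 fold change of all active genes near 0, and equal medians put it at 0.29 (Ku) and 0.31 (Cov) at 250 nM. Log2 fold changes at 250 nM turned in Ku cells to 1.93 and 1.41 (ATP5E), 1.73 and 1.20 (COX7C), 1.33 and 0.80 (NDUFB9), 1.44 and 0.92 (SDHB), 1.67 and 1.15 (UQCRH), 0.97 and 0.63 (COX7A1) and 0.55 and 0.064 (TFAM), and to 0.24 for UQCRFS1 with equal medians. In Cov cells they turned to 1.36 and 0.90 (ATP5E), 1.28 and 0.82 (COX7C), 1.14 and 0.68 (NDUFB9), 0.99 and 0.53 (SDHB), 1.33 and 0.87 (UQCRH) and 1.59 and 1.15 (ATP5EP2), and with equal medians to 0.22 (UQCRFS1) and 0.10 (TFAM).

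With no minimum FPKM, which adds genes near the low end, lower calls were 0 (Ku 50 nM), 7 (Ku, 250 nM against 50 nM) and 19 (Cov 50 nM). Members minus all genes in median log2 fold change, reported as 0.31 and 0.58 in Ku cells and 0.30 and 0.45 in Cov cells for 50 nM and 250 nM, was then 0.053, -0.015, -0.034 and -0.15. It was 0.40, 0.86, 0.45 and 0.69 with a pseudocount of 0.1, 0.51, 1.13, 0.54 and 0.87 with equal medians, and 0.44, 0.90, 0.47 and 0.72 with median-of-ratios. A minimum of 10 FPKM gave 0.76 (Ku 250 nM), 0.37 (Cov 50 nM) and 0.64 (Cov 250 nM). Without the trend lower calls were 0 (Ku 50 nM) and 11 (Ku, 250 nM against 50 nM). Between doses in Cov cells they were 5 with a pseudocount of 0.1 and 10 at an adjusted p under 0.05. Leaving out copies and non-subunits, chosen after seeing the data, gave 1 for Ku 50 nM. Except for the scalings, the cause was not tested.

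With a replicate block lower calls were 1 (Ku 50 nM), 45 (Ku 250 nM), 33 (Ku, 250 nM against 50 nM), 11 (Cov 50 nM), 60 (Cov 250 nM) and 1 (Cov, 250 nM against 50 nM), beside 6.94%, 66.6%, 34.7%, 51%, 78.6% and 7.93% of all active genes. The 60 are 73.2% of the members, below the 78.6%. Libraries of a block are known to share only a replicate number. Correlations of replicate differences between groups were 0.000345, -0.00771 and -0.00871 in Ku cells and 0.0282, -0.0703 and -0.051 in Cov cells. They cannot decide whether the numbers mark a pairing, because a correlation across genes misses an offset common to the genes. In Ku cells replicate 1 was above replicate 2 for 77 (DMSO), 71 (50 nM) and 73 (250 nM) members. The median log2 differences were 0.124, 0.0867 and 0.115 there, and -0.156, -0.086 and 0.0501 in Cov cells.

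With each library left out in turn, the lone library of its group being assumed to vary like the others, lower calls ranged from 0 to 0 (Ku 50 nM), 15 to 33 (Ku 250 nM), 2 to 21 (Ku, 250 nM against 50 nM), 2 to 23 (Cov 50 nM), 56 to 76 (Cov 250 nM) and 1 to 2 (Cov, 250 nM against 50 nM). Of all active genes 0.0421% to 0.919%, 42.7% to 63.5%, 5.55% to 32.3%, 30.3% to 69.7%, 73.3% to 86.6% and 10.7% to 27.9% were called lower in the same fits. The difference of medians ranged from 0.28 to 0.34 (Ku 50 nM), 0.50 to 0.65 (Ku 250 nM), 0.27 to 0.33 (Cov 50 nM) and 0.41 to 0.47 (Cov 250 nM). ATP5E in Ku cells turned to 0.02 without DMSO replicate 1 and 0.053 without 250 nM replicate 2, ATP5EP2 in Ku cells to -0.22 and -0.10, and COX7A1 in Cov cells to -0.022 without 250 nM replicate 2, with 0.25 without replicate 1. Depth is unknown, and the 2 libraries per group limit the precision of each fold change.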

Other observations

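NDUFC2-KCTD14, a readthrough transcript over NDUFC2 and its neighbor KCTD14 whose name has a hyphen, had 40.6 and 35.5 FPKM in Ku DMSO, 19.1 and 19.0 at 50 nM and 3.19 and 2.74 at 250 nM. In Cov cells it had 59.5 and 64.5, 21.8 and 24.0, and 4.17 and 4.83 FPKM. NDUFC2 itself had 44.7 and 42.6 FPKM in Ku DMSO and 39.9 and 37.7 at 250 nM, and 224 and 245 and then 154 and 146 FPKM in Cov cells. How reads over their shared exons were divided is uncertain. NDUFB2-AS1, named as antisense to NDUFB2, was listed at 2.06 and 1.58 FPKM in Ku DMSO and 0.16 and 0.08 at 250 nM. In Cov cells it was listed at 1.15 and 1.36 FPKM in DMSO, 0.32 and 0.38 at 50 nM and 0.38 and 0.36 at 250 nM. Whether strand was used in counting is uncertain. The remaining row with a hyphen, ATP5J2-PTCD1, reached at most 0.35 FPKM in Ku cells and 0.79 FPKM in Cov cells.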
